A study of Mus musculus with 6 samples.

Results

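The smooth muscle contractile genes described here were Acta2, Actg2, Tagln, Myh11, Des, Cnn1, Myl9, Lmod1, Synm and Smtn. They were taken by gene name from the deposited expression table, which held 54167 genes, and all 10 were found in it once. RNA had been sequenced from 6 colorectal tumors, 3 of Trp53fl/fl mice and 3 of VP mice. In Trp53fl/fl mice both copies of Trp53, the gene of the tumor suppressor p53, are flanked by loxP sites and stay intact. VP mice carry the same floxed Trp53 alleles together with Pvillin-Cre, a recombinase driven by the villin promoter, which is active in intestinal epithelium and not in muscle. The model therefore targets Trp53 in epithelial cells, and the smooth muscle cells of either genotype keep the gene. The labels give the strain C57BL/6J for all 6 samples. According to the methods, the mice were male and were given 10 mg/kg azoxymethane (AOM), a carcinogen, at 8 weeks of age and then repeated courses of 2.5% dextran sulfate sodium (DSS), which injures the colon lining, for 7 days each. RNA came from tumors of day 98, trimmed of adjoining normal colon. Whether a sample holds 1 tumor or several was not given in the sources used here.

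Smooth muscle forms the muscularis mucosae just beneath the colon lining, the outer muscle layers of the gut wall and the walls of blood vessels. Its cells contract when calcium leads to the activation of myosin light chain kinase, which phosphorylates the regulatory light chain of myosin and lets the thick filaments pull on the actin thin filaments. The filaments are anchored to dense bodies and to a scaffold of intermediate filaments. Many genes of this machinery are activated together by serum response factor (SRF) and its partner myocardin through a short promoter element, the CArG box. Fibroblast-like cells of tumors and pericytes can also make some of these proteins, Acta2 and Tagln above all.

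Expression was given as TPM, a unit in which a gene's reads are corrected for the length of its transcripts and each tumor is brought to a common total, so that levels of different genes can be set side by side. TPM retain no read number, so the depth of each library is unknown and no counting error can be attached to a value. Between 14857 and 15234 genes reached 1 TPM in a tumor. Trp53 itself lay at 99.3 to 147 TPM in the Trp53fl/fl tumors and 27.8 to 38.5 TPM in VP tumors, in the direction of the labels. Fold changes are VP minus Trp53fl/fl on the log2(TPM + 1) scale, which understates changes of weakly expressed genes. The limma test covered the 15117 genes that reached 1 TPM in 3 or more tumors, and p-values were adjusted over all of them by the Benjamini-Hochberg method. The limma p-values set the difference between the genotype means against the spread between tumors of the same genotype, pooled over both genotypes.

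The smooth muscle actins are near copies of each other and of the nonmuscle actins, which were far more abundant in these tumors. The last 60 coding bases, stop codon included, are shown for both smooth muscle actins and for the nonmuscle actin Actb to show how far they differ over a stretch shorter than many reads. They come from the GENCODE M21 transcripts, and capitals mark the bases that differ from Acta2.
Acta2: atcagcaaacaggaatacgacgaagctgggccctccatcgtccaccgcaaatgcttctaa
Actg2: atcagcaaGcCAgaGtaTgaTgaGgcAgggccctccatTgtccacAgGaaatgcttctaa
Actb: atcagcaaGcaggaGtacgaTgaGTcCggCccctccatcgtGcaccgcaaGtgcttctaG
Actg2 differed from Acta2 at 11 of these bases and Actb at 10. Over the whole coding sequence, 84.2% of the bases of Actg2 and 82.8% of those of Actb were identical to Acta2. No stretch of 100 bases in the Acta2, Actg2, Myh11, Cnn1, Myl9 or Lmod1 transcript occurred in a transcript of another gene on either strand. Des, Synm and Smtn shared 4.2%, 3.6% and 7.45% of their stretches with an overlapping gene listed at no more than 0.54 TPM. Tagln had the largest overlap. Of its exon bases, 62.4% are overlapped on the opposite strand by the antisense gene Gm48529, listed at 3.45 to 4.90 TPM, and 5.43% by Pcsk7, listed at 27.1 to 38.6 TPM. Whether the counting used strand was not given in the sources used here, so reads from the overlapping part cannot be assigned to 1 gene. Of the 100-base stretches of the Tagln transcript, 33.2% were shared with these neighbors.

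The promoter windows of RefSeq (GRCm38.p6), 250 bases before to 50 bases after the start of a gene, had an entry for 7 of the 10 genes. They were searched on both strands for the CArG box, a 10-base element that reads the same way on both strands. An exact box was present in 1 of the 7, Myl9, and in 1.63% of all 32851 windows. With 1 mismatch allowed, a box was present in 4 of the 7, namely Acta2, Myl9, Lmod1 and Synm, and in 21.1% of all windows. Each is shown with 10 bases on either side, 5′ to 3′ along the gene, and capitals mark the box.
Acta2, chr19:34255438-34255467, minus strand: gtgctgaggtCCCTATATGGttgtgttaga
Acta2, chr19:34255388-34255417, minus strand: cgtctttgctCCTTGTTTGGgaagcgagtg
Myl9, chr2:156775293-156775322, plus strand: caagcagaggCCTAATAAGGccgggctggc
Myl9, chr2:156775355-156775384, plus strand: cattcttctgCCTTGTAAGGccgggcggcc
Lmod1, chr1:135324614-135324643, plus strand: gcccccttgtCTTTAAAAGGctaaactgct
Lmod1, chr1:135324639-135324668, plus strand: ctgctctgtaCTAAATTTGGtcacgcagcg
Synm, chr7:67759962-67759991, minus strand: caacggggagCCTCATAAGGtgtcccagat
The first box of Myl9 is the exact one, and the other 6 differ from the element at 1 base. A match of letters does not show that a factor binds there in these tumors.

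No contractile gene passed the test between the genotypes. All 10 passed the filter on low values, and 0 of the 10 had a limma adjusted p under 0.05, where 25 of the 15117 genes tested, or 0.165%, did. At an unadjusted p under 0.05 the count was again 0 of 10, against 12.5% of all genes tested. In 0 of the 10 did the tumors of the genotypes separate without overlap, against 19.3% of all genes tested. The log2 fold change was above 0 for 9 of the 10, and its median was 0.24 beside −0.07 over all genes tested. What varied was the individual tumor: every one of the 10 genes was highest in VP replicate 2 and lowest in VP replicate 3, so that the VP tumors lay on both sides of the Trp53fl/fl tumors.

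**Figure D1:**
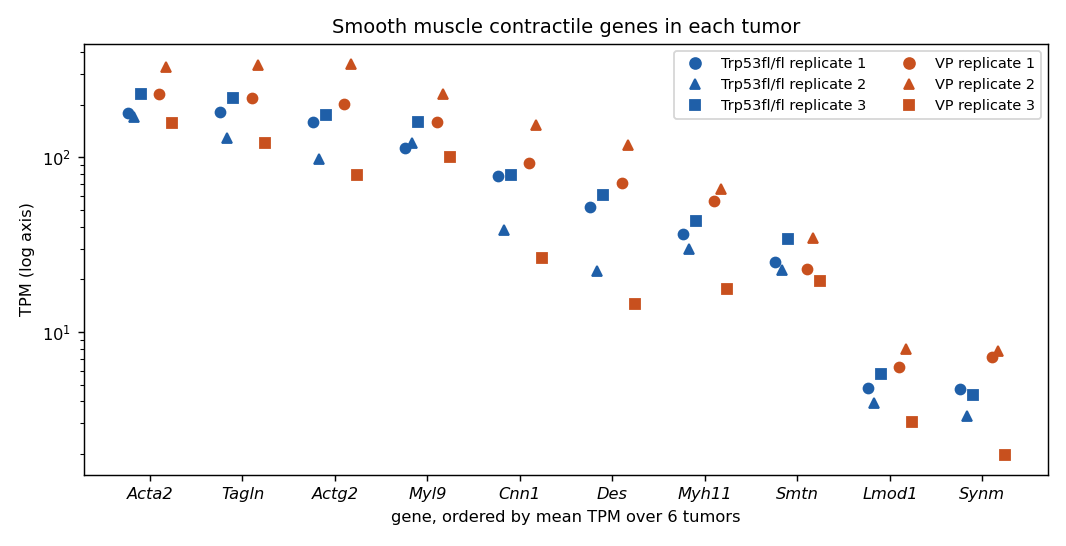
TPM on a log axis of the 10 contractile genes in each of the 6 tumors, with genes ordered by their mean and 1 point per tumor. In every gene the VP replicate 2 triangle is the highest point and the VP replicate 3 square the lowest, and the Trp53fl/fl points lie between them.

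Acta2 (ENSMUSG00000035783), the alpha actin of vascular and visceral smooth muscle, had the highest mean level of the 10. It was at 179, 170.0 and 231 TPM in the Trp53fl/fl tumors and 231, 329 and 157 TPM in VP tumors. The genotypes overlapped, and the log2 fold change was 0.25 with a 95% confidence interval from −0.37 to 0.88 (limma adjusted p = 0.699). Actg2 (ENSMUSG00000059430), the gamma actin typical of gut smooth muscle, was at 159, 98.4 and 175 TPM in the Trp53fl/fl tumors and 201, 344 and 78.8 TPM in VP tumors. Its level was 4.37 times as high in VP replicate 2 as in VP replicate 3, whereas for Acta2 this ratio was 2.10. The log2 fold change of Actg2 was 0.33, the largest of the 10, with an interval from −0.86 to 1.53 (limma adjusted p = 0.799).

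The ratio of Actg2 to Acta2, which does not depend on how a tumor was scaled, followed the same order at its ends. It was 0.890, 0.579 and 0.755 in the Trp53fl/fl tumors and 0.868, 1.05 and 0.502 in the VP tumors. VP replicate 2 was the only tumor with more Actg2 than Acta2, and VP replicate 3 had the least Actg2 for its Acta2. The mean log2 ratios of the genotypes differed by 0.077 (two-sided exact permutation p = 0.9, where 0.1 is the smallest p that 3 tumors per genotype allow). The 2 smooth muscle actins together amounted to 7.39%, 6.89% and 7.70% of the nonmuscle actins Actb and Actg1 in the Trp53fl/fl tumors, a narrow range. In the VP tumors they amounted to 9.75%, 12.7% and 4.74%. The mean log2 ratio differed by 0.19 between the genotypes (two-sided exact permutation p = 0.7).

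The actin-binding proteins of the thin filament showed the pattern of the actins with different amplitudes. Tagln (ENSMUSG00000032085) encodes transgelin, also called SM22 alpha, an actin-binding protein of the calponin family. It was at 182, 128 and 219.7 TPM in the Trp53fl/fl tumors and 219, 337 and 121 TPM in VP tumors. VP replicate 3 lay just under Trp53fl/fl replicate 2, and VP replicate 1 and Trp53fl/fl replicate 3 were nearly equal. For Tagln the log2 fold change was 0.27 (interval −0.61 to 1.14, limma adjusted p = 0.777). Cnn1 (ENSMUSG00000001349), calponin 1, which binds actin and restrains the myosin ATPase, was at 78.55, 38.45 and 79.06 TPM in the Trp53fl/fl tumors and 93.1, 153 and 26.4 TPM in VP tumors. Its ratio between VP replicates 2 and 3 was 5.81, and its highest Trp53fl/fl level was 2.06 times its lowest. VP minus Trp53fl/fl, its log2 fold change was 0.22 (interval −1.23 to 1.67, limma adjusted p = 0.895). Lmod1 (ENSMUSG00000048096), leiomodin 1, a nucleator of actin filaments in smooth muscle, was among the weakest of the 10. It was at 4.76, 3.92 and 5.72 TPM in the Trp53fl/fl tumors and 6.27, 8.02 and 3.06 TPM in VP tumors, in the same order of tumors as Cnn1 and Actg2. Its log2 fold change was 0.16 (interval −0.56 to 0.88, limma adjusted p = 0.837). Smtn (ENSMUSG00000020439), smoothelin, an actin-binding protein of contractile smooth muscle cells, varied least among the VP tumors, though not among the Trp53fl/fl tumors. It was at 25.2, 22.5 and 34.0 TPM in the Trp53fl/fl tumors and 22.9, 34.4 and 19.6 TPM in VP tumors. Trp53fl/fl replicate 3 nearly reached VP replicate 2, and VP replicate 1 was lower than 2 of the Trp53fl/fl tumors. Smtn was the only one of the 10 with a log2 fold change under 0, at −0.10 (interval −0.66 to 0.46, limma adjusted p = 0.874).

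Of the thick filament, Myh11 (ENSMUSG00000018830) encodes the smooth muscle myosin heavy chain, the most specific marker of the mature smooth muscle cell among these genes. It was at 36.5, 30.1 and 43.3 TPM in the Trp53fl/fl tumors and 56.6, 66.1 and 17.6 TPM in VP tumors. The Trp53fl/fl tumors stayed within 1.44 times of each other, and the VP tumors spanned a ratio of 3.75. Myh11 had a log2 fold change of 0.16 (interval −0.92 to 1.24, limma adjusted p = 0.899). Myl9 (ENSMUSG00000067818), the regulatory light chain that is phosphorylated to start contraction, was at 113, 120.5 and 159 TPM in the Trp53fl/fl tumors and 159, 229 and 100.9 TPM in VP tumors. Its ratio between VP replicates 2 and 3 was 2.27, close to that of Acta2. Its log2 fold change of 0.25 lay well inside the spread between tumors (interval −0.43 to 0.94, limma adjusted p = 0.731).

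The intermediate filament genes included the member with the widest range. Des (ENSMUSG00000026208) encodes desmin, the main intermediate filament protein of muscle. It was at 52.1, 22.5 and 61.0 TPM in the Trp53fl/fl tumors and 71.6, 117 and 14.5 TPM in VP tumors, so that VP replicate 2 had 8.11 times the level of VP replicate 3. Among the Trp53fl/fl tumors too it varied more than any other member, with a ratio of 2.71 between the highest and the lowest. The log2 fold change was 0.26, and its interval from −1.49 to 2.01 was the widest of the 10 (limma adjusted p = 0.898). Synm (ENSMUSG00000030554), synemin, which assembles with desmin, was at 4.74, 3.30 and 4.37 TPM in the Trp53fl/fl tumors and 7.17, 7.81 and 1.97 TPM in VP tumors. Here VP replicates 1 and 2 were close to each other and both above the Trp53fl/fl tumors. The log2 fold change was 0.23 (interval −0.74 to 1.20, limma adjusted p = 0.830).

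**Figure D2:**
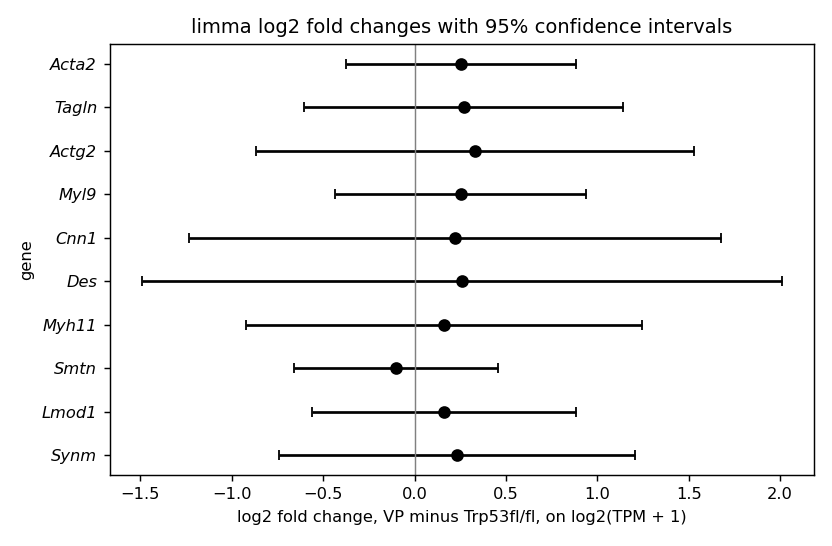
limma log2 fold change of each contractile gene, VP minus Trp53fl/fl on log2(TPM + 1), as points with 95% confidence intervals, n = 3 tumors per genotype. All 10 intervals include 0, from the narrowest for Smtn (−0.66 to 0.46) to the widest for Des (−1.49 to 2.01).

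The intervals limit what could be seen. For Smtn, Acta2, Lmod1 and Myl9 they stayed within 1 log2 unit of 0 on the log2(TPM + 1) scale, which for a weak gene such as Lmod1 still allows a larger change in TPM. For Des, Cnn1 and Actg2 they reached above 1.5 log2 units, so that a mean level higher in VP by that much was not excluded.

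The 10 genes rose and fell together from tumor to tumor. Summed over the 10, the level was 834, 638 and 1013 TPM in the Trp53fl/fl tumors and 1069, 1627 and 541 TPM in VP tumors, 828 ± 187 TPM (SD, n = 3) and 1079 ± 543 TPM (SD, n = 3). The contractile genes thus made up 0.0541% of all transcripts in VP replicate 3 and 0.163% in VP replicate 2. The tumors stood in 1 order, from VP replicate 3 through Trp53fl/fl replicates 2, 1 and 3 to VP replicates 1 and 2, for 5 of the genes, Actg2, Myh11, Des, Cnn1 and Lmod1. In Acta2 and Tagln, VP replicate 1 and Trp53fl/fl replicate 3 changed places at nearly equal levels. In Myl9 and Synm another pair of neighbors changed places, and in Smtn VP replicate 1 lay between Trp53fl/fl replicates 2 and 1. Averaged over the 10 genes, log2(TPM + 1) was 5.55 ± 0.341 (SD, n = 3) in the Trp53fl/fl tumors and 5.75 ± 0.851 (SD, n = 3) in the VP tumors, a difference of 0.20.

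**Figure D3:**
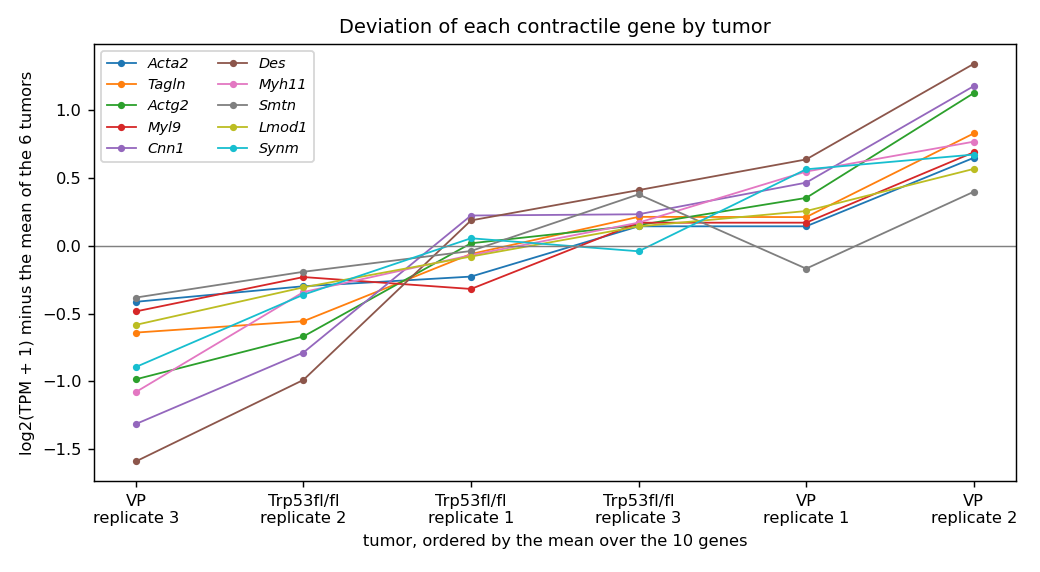
Deviation of each contractile gene from its own mean over the 6 tumors, in log2(TPM + 1), with 1 line per gene and tumors ordered by the mean over the 10 genes. The lines climb together from VP replicate 3 to VP replicate 2, with Des the steepest and Smtn the flattest.

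These counts of tumor order were taken after the values had been seen and are descriptions without a test. Of all genes tested, 2.49% were highest in VP replicate 2 and lowest in VP replicate 3, as were all 10 contractile genes. VP replicate 2 exceeded VP replicate 3 by at least 1 on the log2(TPM + 1) scale in 9 of the 10, all but Smtn, and in 2.75% of all genes tested. The median difference between these tumors was 1.52 over the 10 genes and 0.018 over all genes tested. The SD of log2(TPM + 1) was larger among the VP than among the Trp53fl/fl tumors for all 10 genes, which held for 47.8% of all genes tested. Its median was 0.278 in Trp53fl/fl and 0.807 in VP tumors for the contractile genes, and 0.197 and 0.184 over all genes tested. The genes move together, so these 10 counts are not 10 independent observations, and the difference in spread rests on 3 tumors per genotype and was not tested.

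**Figure D4:**
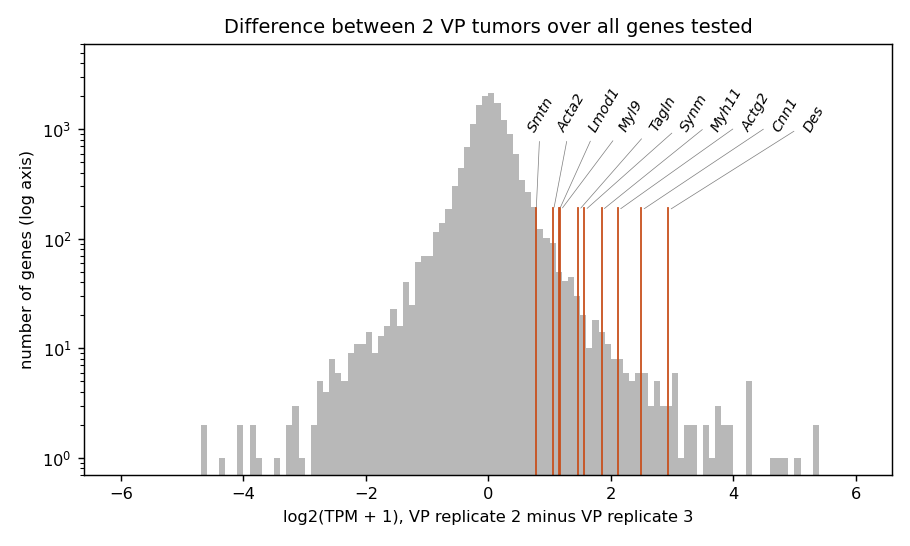
Number of genes (log axis) by the difference in log2(TPM + 1) between VP replicate 2 and VP replicate 3, over the 15117 genes tested, with a red line at each contractile gene. The histogram is centered near 0 (median 0.018) and the contractile genes run from 0.78 for Smtn to 2.94 for Des.

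The amplitude differed by gene, so the makeup of the contractile transcripts differed between the tumors with the highest and the lowest sum. Des contributed 7.22% of the summed TPM in VP replicate 2 and 2.68% in VP replicate 3. Cnn1 contributed 9.42% and 4.87%, and Actg2 21.2% and 14.6%. Acta2 went the other way, with 20.2% in VP replicate 2 and 29.02% in VP replicate 3, as did Myl9 with 14.1% and 18.7%, Smtn with 2.12% and 3.63% and Lmod1 with 0.493% and 0.566%. Tagln was nearly even, at 20.7% and 22.4%. In Trp53fl/fl replicate 2, the lowest tumor of its genotype, Des made up 3.52%, less than in the other Trp53fl/fl tumors (6.25% and 6.03%). Acta2 made up 26.65% there, more than in the others (21.4% and 22.85%). The shares did not follow the sum in every tumor. Cnn1 made up 9.41% in Trp53fl/fl replicate 1 and 7.81% in Trp53fl/fl replicate 3, which had the larger sum.

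The nonmuscle counterparts of the contractile genes varied less in their sum. This list of 12 widely expressed relatives summed to between 8048 and 9635 TPM in the 6 tumors, and 0 of the 12 passed the test, and 0 had the highest level in VP replicate 2 together with the lowest in VP replicate 3. Their median log2 fold change was −0.01. Actg1 was at 2606, 2187 and 2951 TPM in the Trp53fl/fl tumors and 2300.3, 3012 and 2745 TPM in VP tumors, and Myh9, the nonmuscle myosin heavy chain, stayed between 167 and 212 TPM. Vimentin (Vim), the intermediate filament protein of mesenchymal cells, was at 474, 297 and 573 TPM in VP tumors and thus lowest where desmin was highest.

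Genes that regulate or complete the contractile machinery gave no call after adjustment. Of 13 genes that set myosin light chain phosphorylation, 12 were tested and 0 passed adjustment with limma. At an unadjusted p under 0.05, 1 of the 12 was lower in VP tumors, the phosphatase subunit gene Ppp1cb. Over all genes tested, 12.5% had such a p in either direction, so this count is no more than the background. Rhoa, a GTPase gene that all cells express, was at 312 TPM in VP replicate 2 and 315.5 TPM in VP replicate 3. Mylk, the kinase of the light chain and chosen for mention after its values were seen, was at 33.4, 42.8 and 39.8 TPM in the Trp53fl/fl tumors and 42.8, 53.0 and 24.5 TPM in VP tumors, highest and lowest in the same tumors as the contractile genes.

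Of 19 further genes of the thin filament and dense bodies, all were tested and 0 passed adjustment with limma. At an unadjusted p under 0.05, 1 of the 19 was lower, the vinculin gene Vcl, which is no more than the 12.5% of all genes tested. Among them 5 had the tumor extremes of the contractile genes, namely Tpm2, Cald1, Pdlim3, Synpo2 and Flna. The most abundant, Tpm1, did not, and stayed between 480 and 549 TPM (log2 fold change −0.05, limma adjusted p = 0.843). Csrp1 was at 279 TPM in VP replicate 2 and 213.5 TPM in VP replicate 3, both within the range of the Trp53fl/fl tumors (196 to 298 TPM). Of 13 genes of excitation and calcium handling, only 7 were expressed strongly enough to be tested and 0 passed at either threshold. Kcnma1 and its beta subunit Kcnmb1, the calcium-activated potassium channel of smooth muscle, were the 2 tested genes of that list with the extremes of the contractile genes. Kcnma1 was at 2.77 to 3.13 TPM in the Trp53fl/fl tumors and 3.77, 6.29 and 1.94 TPM in VP tumors.

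Transcription factors of smooth muscle were also fixed as a list. Of 10 tested, 0 passed adjustment with limma. At an unadjusted p under 0.05, 1 of the 10 was lower (Tcf21), which is no more than the 12.5% of all genes tested. The extremes of the contractile genes were seen in 0 of the 10, a count that the 2.49% of all genes tested would also give. Their summed level was 204 TPM in VP replicate 2 and 187 TPM in VP replicate 3, the lowest of the 6 tumors. Srf, the gene of the factor that binds CArG boxes, was at 30.4, 23.6 and 31.0 TPM in the Trp53fl/fl tumors and 19.9, 27.5 and 27.7 TPM in VP tumors. VP replicates 2 and 3, which differed most in the contractile genes, were thus nearly equal in Srf. Klf4, a factor known to repress contractile genes in cultured smooth muscle cells and also expressed by gut epithelium, was at 110.2 TPM in VP replicate 1 and between 59.4 and 83.0 TPM in the other tumors. Myocd, the gene of myocardin, chosen for mention after its values were seen, was close to the detection filter, with 1.35, 2.05 and 2.71 TPM in the Trp53fl/fl tumors and 0.68, 0.66 and 1.63 TPM in VP tumors. Its levels in VP replicates 1 and 2 were nearly equal and under the 1 TPM of the filter (log2 fold change −0.62, limma adjusted p = 0.414).

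In whole tumors, fewer cells of a type and less RNA per cell cannot be told apart. Markers of other cells of the gut wall were therefore set beside the contractile genes, and their part in the result was not tested. The 10 enteric neuron markers, of which 6 were tested, summed to 36.7, 28.1 and 31.3 TPM in the Trp53fl/fl tumors and to 52.5, 47.7 and 22.8 TPM in VP tumors, with VP replicate 3 lowest. Much of that gap came from Vip, a peptide transmitter, which was at 18.1 TPM in VP replicate 2 and 1.42 TPM in VP replicate 3. Of the 6 tested, 2 had the extremes of the contractile genes, Vip and Snap25, against 2.49% of all genes tested. VP replicate 3 was the lowest tumor for 7 of the 10 markers. Uchl1, with a higher mean over the 6 tumors than Vip, was at 9.42 TPM in VP replicate 2 and 7.27 TPM in VP replicate 3. Ret, a receptor, was lower in VP replicate 2 than in VP replicate 3, at 6.13 against 8.79 TPM. The 5 glia markers were all under the filter and summed to 2.13 TPM in VP replicate 2 and 0.49 TPM in VP replicate 3. Of 3 markers of interstitial cells of Cajal, the pacemaker cells of the muscle layer, 2 were tested, and the sum lay between 79.0 and 87.8 TPM, mostly from Ano1, which epithelium can express as well. The 4 mesothelium markers, of the outer surface of the gut, summed to 25.4 TPM in VP replicate 2 and to between 6.01 and 13.3 TPM in the other tumors, nearly all from Msln, with the other 3 under 1 TPM.

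The sums of vessel and connective tissue markers differed less between VP replicates 2 and 3 than the contractile sum did, though not every single gene did. The ratio of VP replicate 2 to VP replicate 3 was 3.01 for the contractile sum. For these lists it ran from 0.989 for endothelium to 1.88 for myofibroblasts. The 7 pericyte markers summed to 54.2 TPM in VP replicate 3 and to between 74.8 and 85.9 TPM in the others. In this sum VP replicate 3 was again lowest but VP replicate 2 did not stand out. Of the 7, 2 had the extremes of the contractile genes, against 2.49% of all genes tested. These were Cspg4, at 4.30 TPM in VP replicate 2 and 1.62 TPM in VP replicate 3, and Abcc9, at 8.05 and 2.63 TPM. The most abundant, Rgs5, was at 23.3 and 20.7 TPM there and did not have them. The 7 endothelium markers summed to between 88.0 and 117 TPM, at 109.7 TPM in VP replicate 2 and 111 TPM in VP replicate 3. The 8 fibroblast markers summed to 872, 974 and 945 TPM in the Trp53fl/fl tumors and to 718, 1079 and 925 TPM in VP tumors. Of the 8, 3 were lower in VP at an unadjusted limma p under 0.05, namely Lum, Pdgfra and Dpt. Of all genes tested, 12.5% had such a p in either direction. The 7 myofibroblast markers, 6 of them tested, summed to 211 TPM in VP replicate 2 and to 112.5 TPM in VP replicate 3, the extremes of the 6 tumors. Only Grem1, a secreted BMP inhibitor, had these extremes within the list, at 70.7 and 20.3 TPM. Foxl1, Hhip and Npnt were instead lower in VP replicate 2 (4.29, 1.12 and 6.88 TPM) than in VP replicate 3 (7.60, 1.70 and 11.9 TPM). The 12 epithelium markers summed to 10526, 11226 and 11776 TPM in VP tumors and to 9698 to 10233 TPM in the Trp53fl/fl tumors. VP replicate 3 thus had the highest sum, and VP replicate 2 the next. The single genes differed: Krt8 was higher in VP replicate 3 than in VP replicate 2 (3177 against 2784 TPM), and Cdh1 was lower (379 against 467 TPM). The 5 markers of mature colonocytes summed to 282 TPM in VP replicate 3 and to between 419 and 597 TPM in the others.

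Markers of striated muscle and fat were low. Of 9 striated muscle markers, 2 were tested and Myh4 was at 0 in every tumor. Skeletal actin (Acta1) was at 6.92 to 8.87 TPM in the Trp53fl/fl tumors and 7.20, 16.8 and 7.15 TPM in VP tumors. Of the 4 adipocyte markers 1 was tested, and Lep was at 0 in every tumor. In none of these lists of cell type markers did a gene pass the adjustment with limma, and at an unadjusted p under 0.05 the genes beside the 3 fibroblast markers were Krt19 and Cldn7 of the epithelium list, higher in VP, and Car1 of the mature colonocytes, lower. These were 2 of 12 epithelium markers and 1 of 5 mature colonocyte markers, where 12.5% of all genes tested had such a p in either direction.

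**Figure D5:**
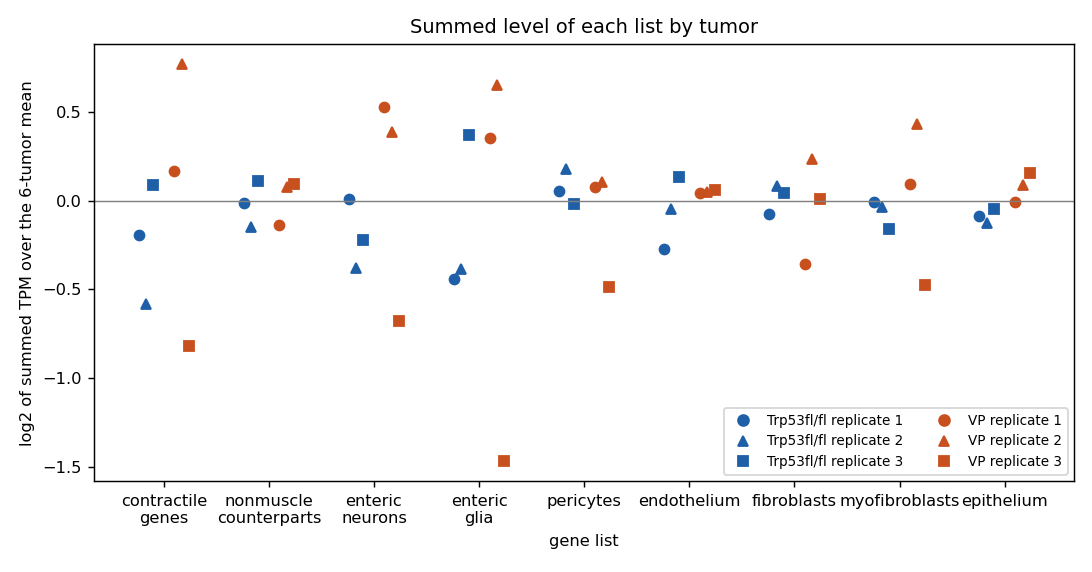
log2 of the summed TPM of each gene list over its mean across the 6 tumors, with 1 point per tumor. The contractile genes span 541 to 1627 TPM between VP replicates 3 and 2. The enteric neuron, glia, pericyte and myofibroblast lists are also lowest in VP replicate 3, with all glia genes under the filter on low values. The endothelium and nonmuscle lists are at like levels in VP replicates 2 and 3.

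The genes outside the 10 whose tumor pattern was most like the contractile mean were sought among the genes with a mean of at least 5 TPM. Likeness was the mean absolute difference, over the 6 tumors, between the log2(TPM + 1) deviations of a gene and the mean deviations of the 10, and its median over the 11436 candidates was 0.480. Closest was Tpm2, the beta tropomyosin of muscle thin filaments, at 0.087. It was at 123, 101 and 148 TPM in the Trp53fl/fl tumors and 190.3, 224 and 76.3 TPM in VP tumors. Only Tagln of the contractile genes themselves was closer, at 0.073, and Des was the farthest of them, at 0.424. Next came Pgm5, which encodes aciculin, a protein of muscle adhesion sites, at 0.124. Then followed Synpo2, or myopodin, an actin-binding protein of muscle, at 0.129, and Hspg2, the basement membrane proteoglycan perlecan, at 0.139. The other 6 of the 10 most alike were Boc (0.141), C3 (0.143), Chrdl2 (0.147), Lims2 (0.148), Foxd2os (0.168) and Aqp4 (0.169). C3, a complement component, was at 57.5 to 78.6 TPM in the Trp53fl/fl tumors and 112, 138 and 51.8 TPM in VP tumors. Aqp4, a water channel, was at 60.1 TPM in VP replicate 2 and 21.4 TPM in VP replicate 3. With 6 tumors many genes can follow 1 order, and likeness of this kind is a description.

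Because VP replicates 2 and 3 stood at the ends, the genotype comparison depended on each of them. Without VP replicate 2 the log2 fold change was below 0 for all 10 genes, with a median of −0.12. Without VP replicate 3 it was above 0 for all 10, with a median of 0.70, and still 0 of the 10 passed, the smallest limma adjusted p being 0.236 for Myh11. No direction of the contractile genes between the genotypes can therefore be given.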

How the data were processed

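RNA of 6 AOM/DSS tumors was read as poly(A)-selected, paired-end Illumina libraries. The authors deposited TPM per gene with 2 decimals for each tumor, and the submitters' processing notes name HISAT2, StringTie and the genome build mm9. TPM are scaled to a fixed total, so an abundant transcript that changes shifts all others, and neither read numbers nor a counting error can be recovered. Each column was assigned to its tumor through the code in the sample labels, and 0 columns were left unassigned.

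From the deposited TPM, log2(TPM + 1) was tested with limma 3.58.1 in R 4.3.3 (empirical Bayes with trend, Benjamini-Hochberg adjustment) over genes that reached 1 TPM in 3 or more tumors, and the procedure was tested on simulated data. Ratios of summed actins were compared by exact permutation of the tumors. The 10 genes, the other gene lists and the tests were chosen with earlier results of these data known, so no p-value was adjusted over a list or given for a list. All 10 genes are named, together with the nonmuscle counterparts, the genes of other lists with an adjusted p under 0.05 or otherwise up to 3 of the most abundant, the 10 genes most like the members, and Trp53. Mylk, Myocd, Vip, Kcnma1 and the other genes outside this rule were chosen after their values were seen. Not every gene that the rule covers is reported here. Replicate numbers come from the labels, and nothing there says that a number marks a shared litter or day.

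Sequences and overlaps were read from GENCODE M21 (GRCm38) and RefSeq promoter windows (GRCm38.p6) with Biopython 1.88 and pandas 2.3.3. Of the 54167 gene IDs, 52093 have an M21 entry, the 10 genes included. The alternatives were a pseudocount of 0.1, no filter, median-of-ratios rescaling, centring on 12 epithelium genes, a replicate block, empirical Bayes without trend, a threshold of 0.1 and each tumor left out in turn.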

Additional observations from a re-analysis of the deposited data

How the results depend on the processing

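The contractile genes stayed at 0 of 10 called under every alternative. Over all genes, the 25 calls (48.0% of them higher in VP) became 7 (57.1%) without the filter, 10 (70.0%) with the replicate block and 44 at an adjusted p under 0.1, and ranged from 6 without VP replicate 2 to 28 without VP replicate 3, with 8, 10 and 9 calls without Trp53fl/fl replicate 1, Trp53fl/fl replicate 3 and VP replicate 1. The share of calls higher in VP was 59.1% of 22 with median-of-ratios rescaling and 36.1% of 36 with centring on epithelium genes, which moved the median of all genes from −0.07 to −0.18. The replicate block changed no call among the contractile genes, and same-numbered tumors did not deviate together (r = 0.0185, −0.052 and 0.0175).

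The median log2 fold change of the 10 genes was 0.31 with median-of-ratios rescaling and 0.13 with centring, and the difference of their mean per tumor ran from −0.16 without VP replicate 2 to 0.67 without VP replicate 3. In the same 2 settings the log2 fold change ran from −0.0075 to 0.52 for Acta2, −0.15 to 0.91 for Actg2, −0.0799 to 0.66 for Tagln, −0.19 to 0.74 for Myh11, −0.35 to 1.12 for Des, −0.31 to 0.93 for Cnn1, −0.0305 to 0.56 for Myl9, −0.0827 to 0.49 for Lmod1, −0.0497 to 0.74 for Synm and −0.33 to 0.0653 for Smtn. Des and Cnn1 also fell below 0 without Trp53fl/fl replicate 2 (−0.17 and −0.12), Myh11 without VP replicate 1 (−0.08), and Smtn rose above 0 without Trp53fl/fl replicate 3 (0.06). The log2 Actg2 to Acta2 ratio difference ran from −0.14 to 0.38 and that of muscle to nonmuscle actins from −0.11 to 0.60 with the same tumors left out, the former also turning to −0.089 without Trp53fl/fl replicate 2 and −0.0088 without VP replicate 1. The cause was not tested.

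VP replicate 2 was highest and VP replicate 3 lowest in 10 of 10 genes with median-of-ratios rescaling and in 9 with centring, 2 alternatives chosen after seeing the data. The filter, trend, block and centring have no bearing on the actin ratios, nor the filter, trend and block on the mean per tumor.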
